A study of Rattus norvegicus with 24 samples.

Results

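Hearts of rats given acupuncture at Jiaji were compared with hearts of rats given acupuncture at Quchi, both before the same heart injury. The 8 arrays titled JJ1 to JJ4 and QC1 to QC4 make up the comparison, out of 24 arrays in the series, and all genes measured on them were used. The series measured myocardial RNA on single-colour Agilent arrays in 6 groups of 4 arrays: sham, injury without acupuncture (IRI), and injury after acupuncture at Jiaji, Neiguan, Yanglingquan or Quchi. Jiaji and Quchi rats were needled for 7 days at their own acupoint, and the left anterior descending branch of the coronary artery was then ligated in both groups to model myocardial ischaemia-reperfusion injury. Each group held 2 males and 2 females, with replicates 2 and 3 of Jiaji and replicates 3 and 4 of Quchi labelled female. The sources used here do not give strain, genotype, age, needling method or the times of ligation, reperfusion and collection. None of the 6 groups is labelled as needled away from an acupoint. The labels number the arrays within a group and do not say that each is another animal, so the p-values reflect spread among these samples only, and that may be technical.

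Jiaji points lie beside the spine, and Quchi lies at the elbow. Sympathetic nerves release noradrenaline onto adrenergic receptors of the heart and raise its rate and force, while the vagus nerve acts through muscarinic receptors and slows it. Reperfusion after ischaemia brings oxidative stress, calcium overload, inflammation and cell death, and the surviving muscle shifts its fuel use and raises wall stress genes. The series asked how pretreatment at different acupoints acts on this injury.

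Levels are log2 signals minus the 75th percentile of the same array: 0 is that percentile, and a difference of 1 is a 2-fold ratio. Differences are Jiaji minus Quchi unless another pair is named, and "Jiaji 1" stands for replicate 1 of the Jiaji group. Of the probes on each array, between 84.6% and 87.4% were well above background in Jiaji and between 80.3% and 88.5% in Quchi, with Quchi 1 the lowest. Before scaling, Quchi 1 and Quchi 2 were the dimmest of the 8 arrays. Their 75th percentiles were 10.28 and 10.26 (log2), beside 10.60 to 11.06 on the others. These 2 are the Quchi males, so in Quchi sex and array signal cannot be told apart. The 4 Jiaji arrays came from 1 scan, Quchi 2 to 4 from another scan of the same day, and Quchi 1 from a scan 4 days later, so slide scan and group cannot be told apart. All IRI and sham arrays were scanned on an earlier day than the Jiaji and Quchi arrays. In every comparison of Jiaji or Quchi with IRI or sham, scan day and group therefore cannot be told apart. Arrays correlated across genes at r = 0.981 to 0.990 within Jiaji, 0.976 to 0.990 within Quchi and 0.964 to 0.988 between them. All 19 measured cardiomyocyte sarcomere and identity genes were well above background on all 8 arrays, with a mean level of 5.86 to 6.0 on the Jiaji arrays and 5.78 to 6.32 on the Quchi arrays. In whole tissue, fewer cells of a type and less RNA per cell cannot be told apart.

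Jiaji and Quchi hearts differed in 2710 of 12886 tested genes (21.0%) by limma's moderated test with a Benjamini-Hochberg adjusted p under 0.05. Genes past that threshold are referred to as called. Of these, 1350 genes (10.5% of those tested) were higher in Jiaji and 1360 (10.6%) were lower, and the median difference over all tested genes was 0.01. The difference was at least 2-fold for 289 called genes that were higher in Jiaji and 103 that were lower. In 2470 of 12877 genes with values on all 8 arrays (19.2%), the highest array of one group lay below the lowest array of the other.

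The direction of the calls went with signal strength. Among the faintest 3222 genes, 413 were called higher in Jiaji and 109 lower, with a median difference of 0.23. Among the brightest 3222, 87 were called higher and 826 lower, with a median of -0.24. After quantile normalization, which gives every array the same distribution of values, these counts became 222 higher and 264 lower for the faintest genes, with a median of 0.03, and 161 higher and 375 lower for the brightest, with a median of -0.08. Quantile normalized counts are therefore given beside the counts of lists. Each list count stands beside the 10.5% of all tested genes called higher and the 10.6% called lower.

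**Figure D1:**
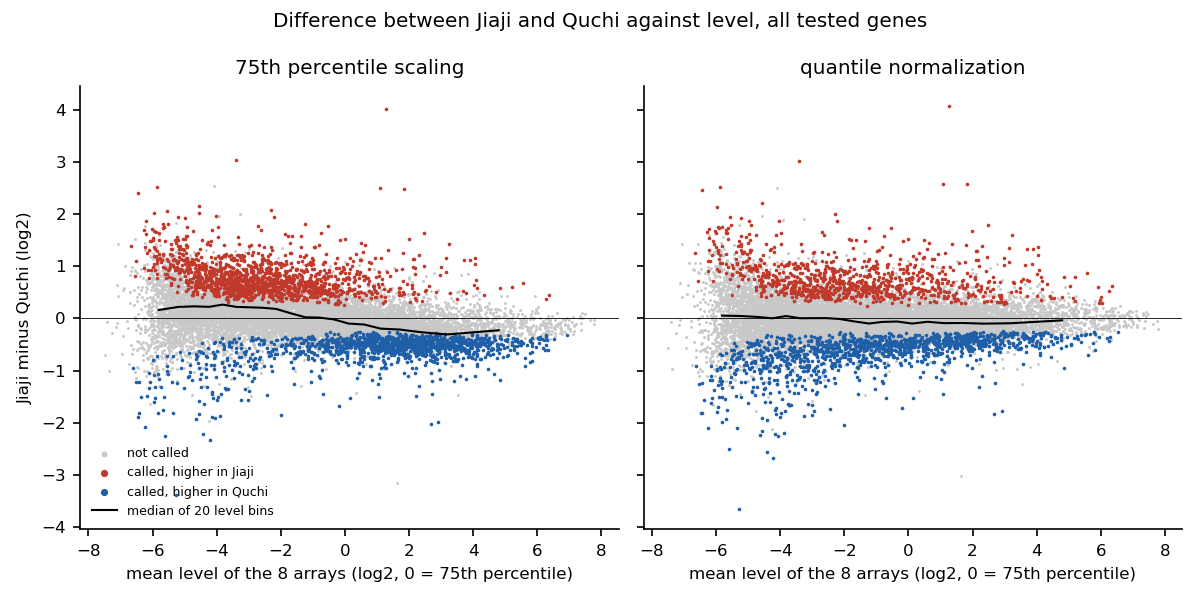
Difference between Jiaji and Quchi (log2, vertical axis) against the mean level of the 8 arrays (log2, 0 at the 75th percentile), 1 point per tested gene, with 75th percentile scaling on the left and quantile normalization on the right. Red points are called and higher in Jiaji, blue points are called and higher in Quchi, and the black line joins medians of level bins: on the left it runs from above 0 among faint genes to below 0 among bright genes, and on the right it stays near 0.

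Scaling set how the calls split. Quantile normalization called 904 genes higher in Jiaji and 1287 lower, and 1683 of the 2710 calls (62.1%) were also called with the same sign there. Scaling to the median of each array moved the median of all genes to -0.19 and called 757 higher and 2992 lower, and normexp background correction called 693 higher and 1609 lower. Of 148 called genes chosen for naming, 27 lost their call with normexp, and 22 of these were in the fainter 2 of 4 signal classes. The offset of 50 compresses faint signals, and its part in the lost calls was not tested. Without Quchi 1, the array scanned on the later day, 1311 genes (10.2%) were called, 645 higher and 666 lower. Calls fell to 1392 without Jiaji 1 and to 1460 without Quchi 2, and they numbered 580 when the 8 arrays were fitted alone. In all, 351 genes were called with the same sign in every planned setting, 207 higher in Jiaji and 144 lower. The 24 members of the gene lists among them included Acot1, Adamts9, Bid, Cd8b, Chrm2, Eno1, Eno3, Hbe2, Hcn4, Hif1a, Il33, Lmod1, Nos2, Ntrk2, Pdk3, Pfkp, Pgam1, Plg, Pomc, Th and Tnfrsf12a.

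**Figure D2:**
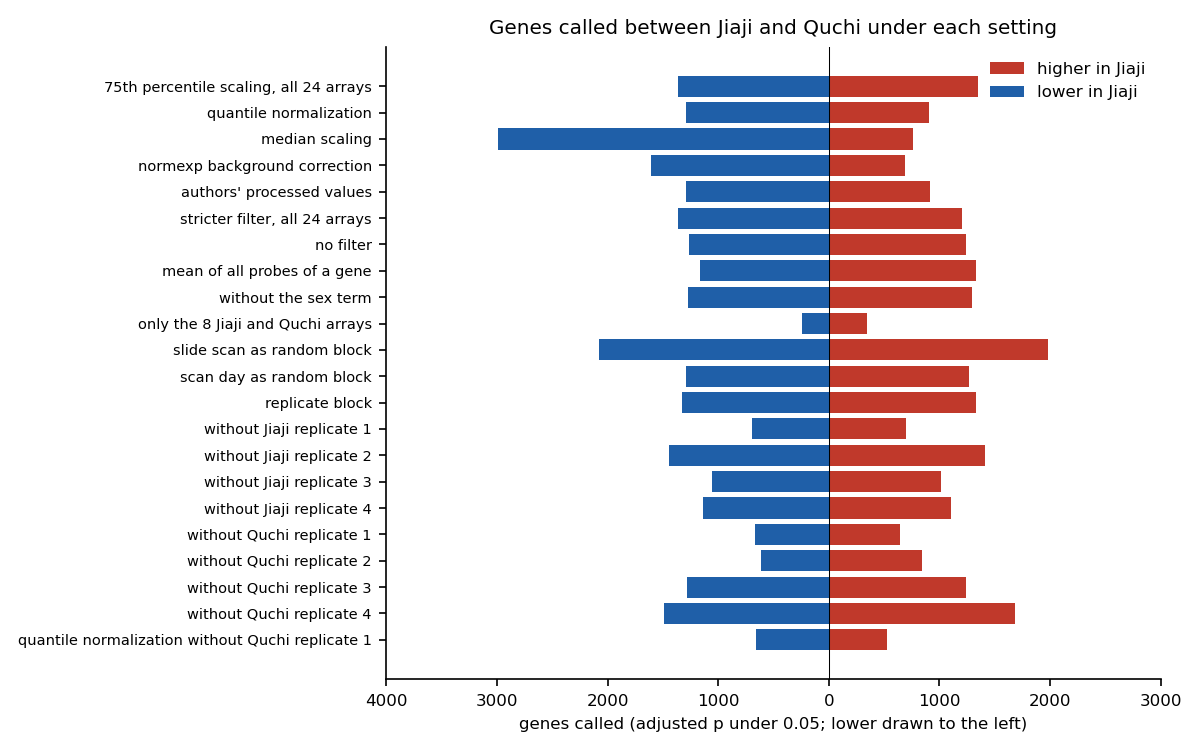
Genes called between Jiaji and Quchi (horizontal axis, number of genes with adjusted p under 0.05) under each setting (vertical axis), with genes higher in Jiaji in red to the right and genes lower in Jiaji in blue to the left. Counts run from 580 with only the 8 arrays to 4065 with the slide scan as a random block, and median scaling has the most one-sided split. Each scan held arrays of a single group, so the slide scan block cannot separate scan from group.

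Called genes of sympathetic and vagal control were higher in Jiaji with 1 exception. Of 27 tested genes of adrenergic and muscarinic control, 7 (25.9%) were called higher and 1 (3.7%) lower, beside 10.5% and 10.6% of all genes. The median difference was 0.29, beside 0.01 over all genes. The list held 7 genes among the brightest 3222. Its other members were in the fainter classes, where 8.44% to 17.9% of genes were called higher and 3.38% to 9.62% lower. The median differences of those classes were -0.04 to 0.23, so a part of the excess over all genes goes with signal strength. Quantile normalization called 6 higher and 3 lower, with a median of 0.10, and without Quchi 1 the counts were 4 higher and 2 lower. Normexp background correction called 7 higher and 2 lower, with a median of -0.04 beside -0.1 over all genes. The list as a whole held 14 genes above 0 and 13 below.

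Th, tyrosine hydroxylase, makes the precursor of noradrenaline and is the rate-limiting enzyme of its synthesis. It lay at 1.45, 1.08, 1.34 and 1.50 on Jiaji replicates 1 to 4 and at -0.30, -0.04, -0.30 and 0.36 on Quchi replicates 1 to 4. Every Jiaji array was above every Quchi array, by 1.41 on average (SE 0.17, limma adjusted p = 3.76e-05). The level was 0.16 ± 0.46 (SD, n = 4) in IRI and -0.31 ± 0.16 (SD, n = 4) in sham. Against IRI the Jiaji difference was 1.18 (SE 0.17, limma adjusted p = 7.57e-05) and the Quchi difference was -0.23 (SE 0.17, limma adjusted p = 0.47). Both of these use the same 4 IRI arrays, which were scanned on an earlier day than all Jiaji and Quchi arrays. Over all genes 10.2% were called for Jiaji minus IRI, 8.40% higher and 1.80% lower, and 3.45% for Quchi minus IRI, 2.39% higher and 1.06% lower. For IRI minus sham the share was 5.77%, with 4.74% higher and 1.03% lower.

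The 250 bases before the start of Th, on the minus strand of GRCr8 at chr1:207508219-207508468 and taken from RefSeq, are shown because Th had the smallest p of this list. The cAMP response element, TGACGTCA, is in capitals and lies 69 to 62 bases before the start.
Th: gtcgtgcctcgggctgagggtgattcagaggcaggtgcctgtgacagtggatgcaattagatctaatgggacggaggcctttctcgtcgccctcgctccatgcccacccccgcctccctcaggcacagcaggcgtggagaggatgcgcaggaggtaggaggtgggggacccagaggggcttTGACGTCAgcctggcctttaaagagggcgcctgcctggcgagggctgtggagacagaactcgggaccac
The element reads the same on both strands. It was found in 531 of 33469 promoter windows of this length (1.59%). Of the 8 called genes of this list, 5 had a promoter in the table, and 1 of those, Th, held the element. A match describes these letters only.

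Slc6a2, the transporter that takes noradrenaline back into sympathetic nerve endings, lay at -0.75, -0.75, -0.66 and -0.67 in Jiaji and at -1.48, -1.12, -1.29 and -1.01 in Quchi. The groups did not overlap, and the difference was 0.52 (SE 0.11, limma adjusted p = 0.00432). Dbh, which makes noradrenaline from dopamine, did not pass, at -0.37 (SE 0.24, limma adjusted p = 0.291). Chrm2, the main muscarinic receptor of the heart, lay at -1.22, -1.85, -1.75 and -1.66 in Jiaji and at -2.52, -2.62, -2.54 and -2.26 in Quchi. The groups were apart by 0.87 (SE 0.16, limma adjusted p = 0.00183). Chrm3, another muscarinic receptor, was 0.79 higher (SE 0.21, limma adjusted p = 0.0119), a call that ended under quantile normalization (adjusted p = 0.0656), and 0.52 higher with normexp background correction.

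Adra1b, an alpha-1 adrenergic receptor, was the one called member that was lower in Jiaji. It lay between 3.13 and 4.03 in Jiaji and between 4.10 and 4.57 in Quchi, a difference of -0.68 (SE 0.17, limma adjusted p = 0.00827). Maob, which breaks down monoamines, was higher by 0.62 (SE 0.16) and Adcy6, an adenylate cyclase of heart muscle, by 0.66 (SE 0.20). Maob was not called without Jiaji 1 or without Quchi 1 (limma adjusted p = 0.0555 each way), nor Adcy6 without Jiaji 1, Jiaji 3, Quchi 1 or Quchi 2 (0.0541 to 0.0985). With normexp background correction Adcy6 differed by 0.0079 and was not called, and Maob differed by 0.39. Arrb1, an arrestin that silences these receptors, was 0.47 higher (SE 0.15), and its call ended under quantile normalization (adjusted p = 0.104) and without any of Jiaji 1, Jiaji 4, Quchi 1, Quchi 2 or Quchi 3.

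**Figure D3:**
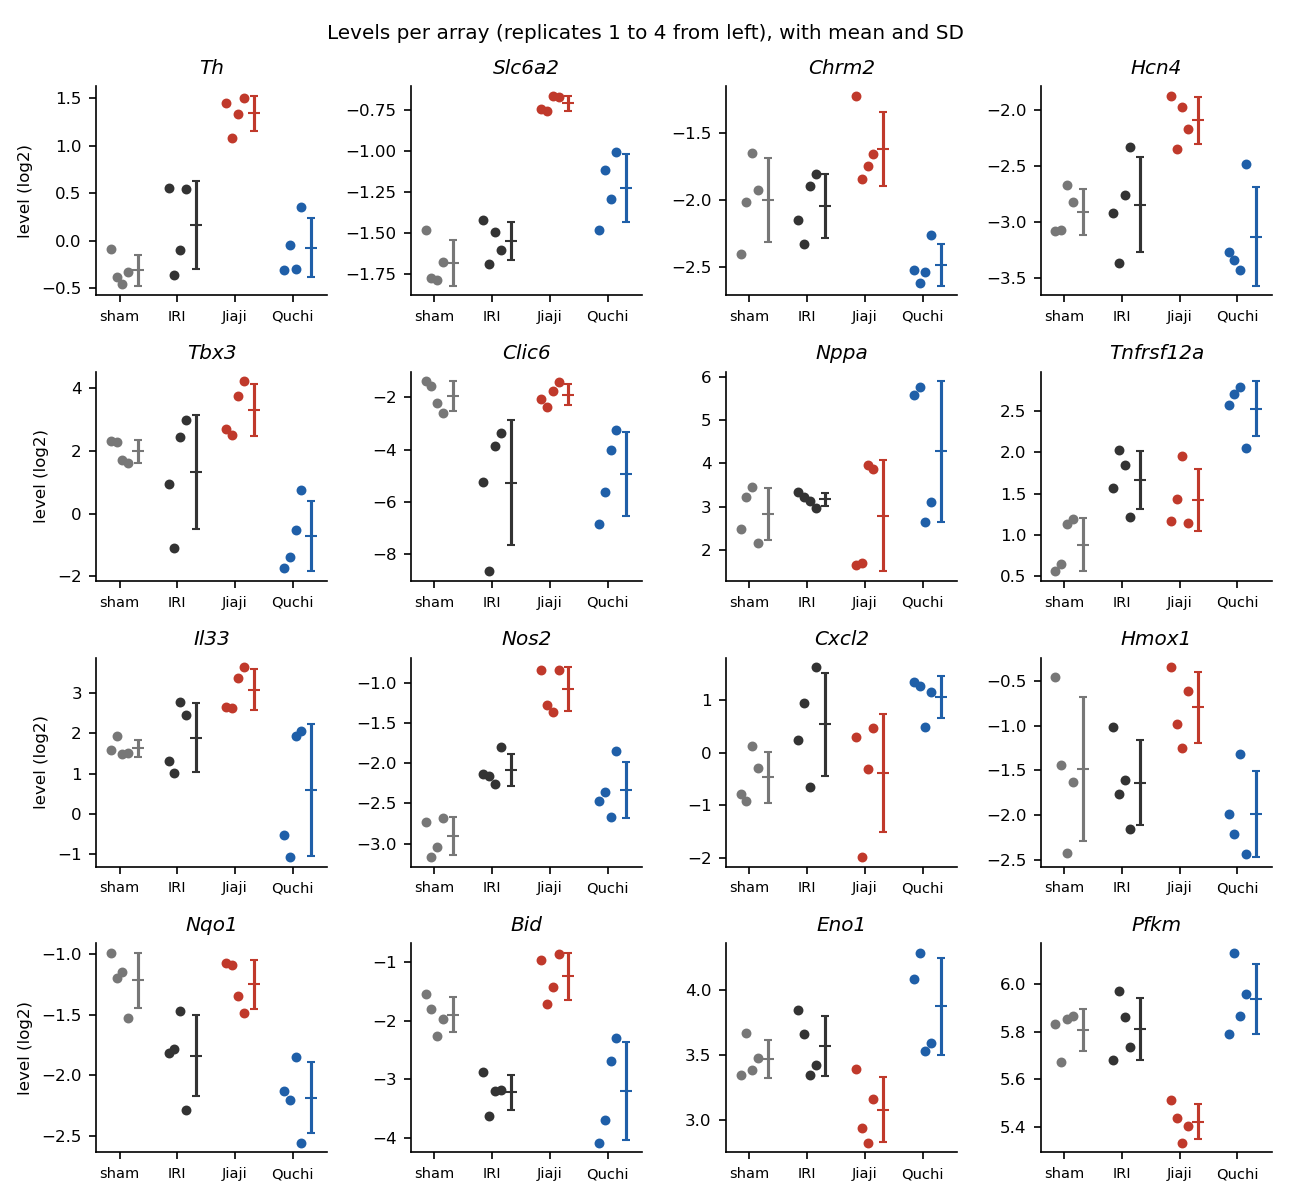
Levels (log2, vertical axis, 0 at the 75th percentile of the array) of 16 genes on the 4 arrays each of sham, IRI, Jiaji and Quchi, with the bar giving mean and SD. Th lies between 1.08 and 1.50 on the Jiaji arrays and between -0.30 and 0.36 on the Quchi arrays, Nppa splits both groups, and Pfkm is lower on all 4 Jiaji arrays than on all 4 Quchi arrays.

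The gene with the largest difference of all was Tbx3, a transcription factor that marks the pacemaker and conduction tissue of the heart. It lay at 2.68, 2.49, 3.76 and 4.21 in Jiaji and at -1.74, -1.40, -0.54 and 0.76 in Quchi. All Jiaji arrays were above all Quchi arrays, by 4.02 on average (SE 0.70, limma adjusted p = 0.0013). The IRI level lay between them and was widely spread, at 1.31 ± 1.82 (SD, n = 4), and neither group was called against IRI, at 1.97 for Jiaji (limma adjusted p = 0.0808) and -2.04 for Quchi (limma adjusted p = 0.109). Hcn4, the pacemaker current channel of the sinus node, lay at -1.87, -2.34, -1.97 and -2.17 in Jiaji and at -3.26, -3.34, -3.43 and -2.48 in Quchi. That was a difference of 1.04 without overlap (SE 0.24, limma adjusted p = 0.00641), and of 0.62 with normexp background correction.

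Of 29 ion channel and calcium handling genes, 2 were called higher and 2 lower, and quantile normalization called 2 and 4. Camk2d, the calcium-dependent kinase of heart muscle, was 0.89 higher (SE 0.24, limma adjusted p = 0.0139), and the call ended without Jiaji 1 or Quchi 2 (0.0564 to 0.066). Kcnj2, the inward rectifier potassium channel, was lower in Jiaji, by a difference of -1.16 (SE 0.33, limma adjusted p = 0.0187) that was not called without Quchi 1 or without Quchi 2 (0.0509 to 0.0812) and was -0.70 with normexp background correction.

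Atrial markers gave no common direction. Nppa, which encodes the atrial natriuretic peptide, lay at 1.66, 1.70, 3.95 and 3.87 in Jiaji and at 5.57, 5.76, 2.65 and 3.11 in Quchi. Both groups split into 2 low and 2 high arrays and overlapped, and the difference of -1.48 did not pass (SE 0.63, limma adjusted p = 0.1). Of 9 tested atrial markers, 1 was called higher and 1 lower, and quantile normalization called 1 and 0. Clic6, a chloride channel protein, lay between -2.35 and -1.41 in Jiaji and between -6.86 and -3.24 in Quchi, and was well above background on 4 and 3 arrays. Its difference of 3.03 (SE 0.83, limma adjusted p = 0.0155) was not called without Quchi 1 or without Quchi 2 (0.0539 to 0.0753) and was 1.51 with normexp background correction. Sham lay at -1.94 ± 0.56 and IRI at -5.27 ± 2.39 (SD, n = 4 each), so the Jiaji arrays were near sham and the Quchi arrays near IRI. Myl4, an atrial myosin light chain, differed by -0.41 (SE 0.12), and its call ended under quantile normalization (adjusted p = 0.0655) and without Jiaji 1, Jiaji 4 or Quchi 2 (0.0549 to 0.0807). The mean level of the 9 markers per array was -0.85 to -0.54 in Jiaji and -1.0 to -0.58 in Quchi, so the groups overlapped. The part of atrial or nodal tissue in the differences was not tested.

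The 3 called wall stress and fetal genes were lower in Jiaji. Of 13 tested genes, 3 (23.1%) were called lower and 0 higher, 11 had a difference below 0, and the median was -0.52. The list held 11 genes among the brightest 3222, of which 25.6% were called lower, so this share is near that of bright genes. At an unadjusted limma p under 0.05 the counts were 7 lower and 1 higher, and quantile normalization called 3 lower and 1 higher with a median of -0.35. Tnfrsf12a, the receptor of the injury cytokine TWEAK, lay at 1.17, 1.43, 1.95 and 1.14 in Jiaji and at 2.57, 2.70, 2.79 and 2.05 in Quchi, without overlap, a difference of -1.10 (SE 0.21, limma adjusted p = 0.00241). It lay at 0.88 ± 0.32 in sham and 1.67 ± 0.35 in IRI (SD, n = 4 each), so the Jiaji arrays were near IRI and the Quchi arrays above it. Nppb, the B-type natriuretic peptide gene and a clinical marker of heart failure, lay between 4.90 and 5.97 in Jiaji and between 5.78 and 6.25 in Quchi.

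Jiaji 3 lay inside the Quchi range for Nppb. Its difference of -0.76 (SE 0.24, limma adjusted p = 0.029) was not called under quantile normalization (adjusted p = 0.0696) or without Jiaji 1, Jiaji 2, Jiaji 4, Quchi 1 or Quchi 2 (0.0553 to 0.101). Csrp3, a stretch sensor of the sarcomere, differed by -0.52 (SE 0.15, limma adjusted p = 0.0179), and the call ended without Jiaji 1, Jiaji 4 or Quchi 2 (0.054 to 0.0816). Ankrd1 and Ankrd2, stretch-induced repeat proteins, did not pass, at -0.37 (SE 0.24) and -1.26 (SE 0.45). Of the cardiomyocyte genes themselves 2 of 19 were called, Ckm, muscle creatine kinase, at -0.37, and Myl4, and neither call was kept under quantile normalization.

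The called glycolytic enzymes were lower in Jiaji. Of 32 tested genes of glycolysis and the hypoxia response, 8 (25.0%) were called lower and 1 higher, with a median of -0.14. The list held 20 genes among the brightest 3222, where 25.6% were called lower, a share near that of the list. Its other members were in the fainter classes, where 3.38% to 9.62% were called lower. Quantile normalization called 8 lower and 1 higher with a median of 0.00, while it called 375 of the brightest 3222 genes lower. The list counts without Quchi 1 were also 8 and 1. All 9 called genes kept their call when any 1 of the 8 arrays was left out, and 8 of the 9 kept it under quantile normalization.

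Pfkm, the muscle form of phosphofructokinase, which commits sugar to glycolysis, lay at 5.51, 5.44, 5.33 and 5.40 in Jiaji and at 5.79, 6.13, 5.87 and 5.96 in Quchi. No Jiaji array overlapped a Quchi array, and the difference was -0.52 (SE 0.10, limma adjusted p = 0.00255). Pfkp, the platelet form, lay between 2.02 and 2.67 in Jiaji and between 2.86 and 3.41 in Quchi, again without overlap, and differed by -0.83 (SE 0.17, limma adjusted p = 0.00371). Eno1, an enolase, lay at 3.39, 2.94, 2.82 and 3.16 in Jiaji and at 4.09, 4.29, 3.53 and 3.59 in Quchi. The difference was -0.79 (SE 0.13, limma adjusted p = 0.00112), and it came out smaller under quantile normalization, at -0.57. Against the shared IRI arrays, Pfkm, Pfkp and Eno1 were called for Jiaji, at -0.39, -0.59 and -0.49 (limma adjusted p = 0.0155, 0.0331 and 0.0223), and not for Quchi, at 0.13, 0.24 and 0.30.

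The other called enzymes were lower as well. Eno3, the muscle enolase, differed by -0.82 (SE 0.21), the phosphoglycerate mutases Pgam1 and Pgam2 by -0.75 (SE 0.18) and -0.58 (SE 0.14), and Hk1, a hexokinase, by -0.75 (SE 0.16). Gapdh, often used as a reference gene, differed by -0.42 (SE 0.09, limma adjusted p = 0.00554), a call that ended under quantile normalization (adjusted p = 0.149). Hk2, the insulin-responsive hexokinase, did not pass, at 0.43 (SE 0.27). The one higher member was Hif1a, the oxygen-sensitive factor that drives many glycolysis genes. It lay at -0.00, -0.86, -0.48 and -0.41 in Jiaji and at -2.05, -2.02, -1.26 and -1.09 in Quchi, a difference of 1.17 without overlap (SE 0.25, limma adjusted p = 0.00447). Here Quchi was called against IRI, at -1.13 (SE 0.25, limma adjusted p = 0.0162), and Jiaji was not, at 0.04 (SE 0.25).

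A part of the subunits of the respiratory chain and ATP synthase was lower in Jiaji, and all of them are bright on the array. Of 30 tested subunits, 10 were called lower and 0 higher, 28 had a difference below 0, and the median was -0.25. All 30 belonged to the brightest 3222 genes, where 25.6% of genes were called lower and the median was -0.24. No subunit was higher at an unadjusted limma p under 0.05, and 17 were lower. Quantile normalization called 3 lower and 0 higher: Ndufb3 and Ndufb8 of complex I, at -0.71 (SE 0.16) and -0.56 (SE 0.12) in the percentile scaling, and Cox7b of complex IV, at -0.54 (SE 0.13).

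Ndufb8 lay at 5.79, 6.08, 5.90 and 5.83 in Jiaji and at 6.48, 6.64, 6.29 and 6.42 in Quchi, without overlap (limma adjusted p = 0.00364). The other 7 called subunits, Ndufs1, Ndufa1, Sdha, Uqcrfs1, Uqcrc1, Atp5pb and Atp5mc1, differed by -0.43 to -0.32, and their calls ended under quantile normalization, those of Atp5pb and Atp5mc1 also with normexp background correction (0.0533 and 0.115). All of the 7 but Uqcrfs1 were also not called without Jiaji 4, Quchi 1 or Quchi 2, among other arrays (0.052 to 0.179). Without Quchi 1, 4 subunits were called lower. Atp5f1b, the catalytic beta subunit of ATP synthase, and Cox5a did not pass, at 0.08 (SE 0.14) and 0.01 (SE 0.14). The 22 ribosomal protein and translation genes, which are similarly bright, held 0 calls by limma, with 4 lower and 0 higher at an unadjusted p under 0.05, 0 calls under quantile normalization and a median of -0.16.

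Few fatty acid genes were called. Of 27 tested genes, 2 were called higher and 3 lower, and quantile normalization called 2 higher and 0 lower. Cd36, the fatty acid transporter of the cell membrane, lay at 5.26, 5.63, 5.87 and 5.24 in Jiaji and at 4.59, 4.54, 5.12 and 5.33 in Quchi. Only Quchi 4 reached the Jiaji range, and the difference was 0.60 (SE 0.16, limma adjusted p = 0.0136), not called without Quchi 2 (0.052). Acot2, a mitochondrial acyl-CoA thioesterase, was 0.59 higher (SE 0.20), and its call ended without any of Jiaji 2, Jiaji 3, Jiaji 4, Quchi 1 or Quchi 2 (0.0613 to 0.139). The lower members were Acads, Acadvl and Etfb, enzymes of beta oxidation, at -0.51, -0.44 and -0.43, and none of these 3 calls was kept under quantile normalization or without Jiaji 1 or Quchi 2, with Jiaji 3, Jiaji 4 and Quchi 3 also ending that of Acadvl and Jiaji 4 and Quchi 1 that of Etfb (0.0523 to 0.107).

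Among 18 PPAR and fuel switch genes, 4 (22.2%) were called higher and 1 (5.56%) lower, beside 10.5% and 10.6% of all genes. Quantile normalization called 3 and 2. Acot1, the cytosolic thioesterase that PPAR alpha induces, lay at -0.68, -0.67, -0.76 and -1.28 in Jiaji and at -3.27, -3.29, -1.24 and -1.92 in Quchi. Only Quchi 3 came above the lowest Jiaji array, and the difference was 1.58 (SE 0.38, limma adjusted p = 0.00808). Pdk3, a kinase that inhibits pyruvate dehydrogenase in mitochondria, lay between -3.36 and -3.04 in Jiaji and between -4.64 and -3.92 in Quchi. Pdk3 differed by 1.19 without overlap (SE 0.23, limma adjusted p = 0.00246) and by 0.43 with normexp background correction, whereas Pdk4, the main cardiac form, did not pass, at 0.76 (SE 0.40). Lpl, lipoprotein lipase, was 0.45 higher (SE 0.13), and the call ended without Jiaji 4, Quchi 1 or Quchi 2 (0.0532 to 0.0816). Mlxipl and Esrra, regulators of sugar and mitochondrial genes, were called at 0.44 and -0.42, and neither call was kept under quantile normalization or without Jiaji 1 or Quchi 1. Mlxipl was also not called with normexp background correction or without Jiaji 3 or Quchi 3, nor Esrra without Jiaji 2, Jiaji 4, Quchi 2 or Quchi 4 (0.0513 to 0.17).

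Inflammatory mediators did not move together. Of 23 tested cytokines and chemokines, 2 were called higher and 2 lower, the median was 0.00, and quantile normalization called 2 higher and 1 lower. Il33, an alarmin released by injured cells, lay at 2.66, 2.64, 3.38 and 3.65 in Jiaji and at -0.53, -1.07, 1.93 and 2.07 in Quchi. The groups did not overlap, but the Quchi arrays were in 2 pairs, with the males, Quchi 1 and 2, far below the females. Those males were also the dimmest Jiaji or Quchi arrays before scaling. The difference was 2.48 (SE 0.52, limma adjusted p = 0.00367). Nos2, the inducible nitric oxide synthase, lay at -0.84, -1.27, -1.36 and -0.84 in Jiaji and at -2.47, -2.36, -2.66 and -1.85 in Quchi, a difference of 1.26 (SE 0.18, limma adjusted p = 0.000234). Against IRI it differed by 1.01 in Jiaji (SE 0.18, limma adjusted p = 0.000687) and by -0.25 in Quchi (SE 0.18, limma adjusted p = 0.47).

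Csf1, the growth factor of macrophages, was lower in Jiaji, at -0.63 (SE 0.17, limma adjusted p = 0.0134) without overlap. Cxcl12, a chemokine that retains progenitor cells, was called at -0.41, a call that ended under quantile normalization (adjusted p = 0.377) and was kept only without Jiaji 4 or Quchi 1 among the 8 arrays left out in turn. It was not called with normexp background correction (adjusted p = 0.0557), and its other probe differed by 0.13. The neutrophil chemokine Cxcl2 lay at 0.30, -1.98, -0.30 and 0.48 in Jiaji and at 1.33, 1.26, 0.48 and 1.15 in Quchi. Only the top of Jiaji met the bottom of Quchi, and the difference of -1.43 did not pass (SE 0.52, limma adjusted p = 0.0551). Il6 differed by 0.00 (SE 0.54), and Ccl7, a monocyte chemokine, by 1.09 (SE 0.43, limma adjusted p = 0.0774).

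Of 22 cytokine receptors and Socs brakes, 4 were called higher and 1 lower, the latter Tnfrsf12a, and quantile normalization called 1 and 1. Osmr, the oncostatin M receptor, was 0.70 higher (SE 0.20, limma adjusted p = 0.0184), not called without Jiaji 1, Quchi 1 or Quchi 2 (0.0545 to 0.0863), and 0.43 with normexp background correction. Socs1, Socs3 and Il1rap were called at 0.40, 0.47 and 0.75, and these calls ended under quantile normalization, with normexp background correction (0.11, 0.32 and 0.18) and without Jiaji 3, Jiaji 4, Quchi 1 or Quchi 3. Those of Socs1 and Socs3 also ended without Jiaji 1 or Quchi 2 (0.0523 to 0.21), and another probe of Il1rap was at -0.02. Without Quchi 1 the list held 0 higher and 1 lower. Among 13 leukocyte adhesion molecules and 24 interferon response genes, limma called 0, with 2 and 1 higher and 0 lower at an unadjusted p under 0.05, and quantile normalization also called 0. Ifit1, an interferon-induced gene, lay at -0.49 to -3.93 in Jiaji and at -7.10, -7.28, -3.61 and -3.42 in Quchi, where the males were again the low pair, and its difference of 2.54 did not pass (SE 1.05, limma adjusted p = 0.0886).

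Antioxidant genes were called in both directions. Of 23 tested genes, 5 (21.7%) were called higher and 3 (13.0%) lower, beside 10.5% and 10.6% of all genes. The median was -0.01, and quantile normalization called 4 higher and 1 lower. Nqo1, a quinone reductase driven by NRF2, lay at -1.07, -1.09, -1.34 and -1.48 in Jiaji and at -2.13, -2.20, -1.84 and -2.56 in Quchi. Both sets of arrays were apart, and the difference was 0.94 (SE 0.22, limma adjusted p = 0.00755). Hmox1, haem oxygenase, lay at -0.34, -0.98, -1.25 and -0.61 in Jiaji and at -1.99, -2.21, -1.32 and -2.43 in Quchi. Its difference of 1.19 (SE 0.33, limma adjusted p = 0.0166) was not called without Jiaji 1, Quchi 1 or Quchi 2 (0.0516 to 0.0619).

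Cat, catalase, was 0.96 higher (SE 0.29) and Txnrd1, thioredoxin reductase, 0.87 higher (SE 0.28), and Gsr, glutathione reductase, 0.80 higher (SE 0.23). These 3 calls ended without Jiaji 1, Quchi 1 or Quchi 2, that of Cat also without Jiaji 3 or Quchi 4, that of Txnrd1 without Jiaji 4 and that of Gsr without Jiaji 3 (0.0501 to 0.149), and that of Gsr under quantile normalization (adjusted p = 0.0507) and with normexp background correction (0.119). The lower members were Gpx4, Prdx3 and Sod1, at -0.46, -0.45 and -0.42. Sod1, the cytosolic superoxide dismutase, kept its call under quantile normalization (adjusted p = 0.0449) and lost it without Jiaji 1 or Quchi 2 (0.072 to 0.0802). The calls of Gpx4 and Prdx3 ended under quantile normalization, and that of Gpx4 without Jiaji 1, Jiaji 4, Quchi 1, Quchi 2 or Quchi 4 (0.0616 to 0.155).

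Cell death genes were called in both directions. Of 25 tested genes, 5 were called higher and 1 lower, with a median of 0.03, and quantile normalization called 3 higher and 0 lower. Bid, which carries the death receptor signal to mitochondria, lay at -0.96, -1.71, -1.43 and -0.85 in Jiaji and at -4.09, -3.70, -2.69 and -2.30 in Quchi. No Jiaji array overlapped a Quchi array, and the difference was 1.96 (SE 0.31, limma adjusted p = 0.000525). Bid lay at -1.89 ± 0.30 in sham and -3.22 ± 0.30 in IRI (SD, n = 4 each), so the Quchi mean was at the IRI level and the Jiaji mean above sham.

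Pmaip1 and Bbc3, which encode the death proteins Noxa and Puma, differed by 1.50 (SE 0.40) and -0.61 (SE 0.19). The difference of Pmaip1 turned to -0.067 with normexp background correction. Pmaip1 was not called without Quchi 1 (limma adjusted p = 0.0619), and Bbc3 was not called under quantile normalization (adjusted p = 0.0517) or without Jiaji 1, Jiaji 3, Quchi 1, Quchi 2 or Quchi 3 (0.0523 to 0.122). Casp9, the caspase of the mitochondrial route, and Acsl4, which favours ferroptosis, were called at 0.74 and 0.46, and neither call was kept under quantile normalization. They differed by 0.044 and 0.30 with normexp background correction, and Casp9 was not called. The call of Casp9 was kept only without Jiaji 3 or Quchi 4 among the 8 arrays left out in turn (up to 0.169). Of 18 cell cycle and mitosis genes limma called 0, none passed an unadjusted p under 0.05, and quantile normalization called 0.

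Of 15 circadian clock genes, 2 were called, both higher in Jiaji, under percentile scaling, quantile normalization and without Quchi 1. Per1, a light- and hormone-responsive period gene, lay at -2.58, -2.83, -2.99 and -2.73 in Jiaji and at -3.63, -3.38, -3.54 and -3.12 in Quchi. The difference was 0.63 without overlap (SE 0.14, limma adjusted p = 0.00444), and it was 0.27 and not called with normexp background correction (adjusted p = 0.0754). Per3 was 0.99 higher on the probe used (SE 0.15, limma adjusted p = 0.000415), with the 4 Jiaji arrays between 0.29 and 0.80 and the 4 Quchi arrays between -0.77 and -0.40. Its 2 other probes differed by -0.28 and 0.23. Per2 did not pass, at -0.59 (SE 0.22, limma adjusted p = 0.0576). The sources used here give no time of day of collection, and its part in these differences was not tested. Of 17 glucocorticoid responsive genes, 2 were called higher, Per1 and Sgk1, a stress-induced kinase at 0.80 (SE 0.27), and quantile normalization called 2 higher and 1 lower. The call of Sgk1 was kept only without Jiaji 2 or Quchi 4 among the 8 arrays left out in turn. Of 25 immediate early genes, 1 was called higher and 1 lower, and quantile normalization called 1 and 0. Egr1 was 1.70 higher (SE 0.51, limma adjusted p = 0.0231), not called without Jiaji 1, Jiaji 3, Jiaji 4, Quchi 1 or Quchi 2 (0.0526 to 0.101) and 1.01 higher with normexp background correction. Klf4 differed by -0.67 (SE 0.18), a call that ended under quantile normalization (adjusted p = 0.0687), and Fos did not pass, at -0.42 (SE 0.39).

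Of 14 angiotensin, kinin and endothelin genes, 2 were called higher and 1 lower, and quantile normalization called 2 and 3. Prcp, a peptidase that cuts angiotensin II, was 1.17 higher (SE 0.33), not called without Jiaji 1, Quchi 1 or Quchi 2 (0.0555 to 0.0731) or with normexp background correction (0.106). Agt, angiotensinogen itself, differed by -0.65 (SE 0.21), and the call was kept only without Jiaji 3 or Quchi 4 among the 8 arrays left out in turn. Of 13 NADPH oxidase and nitric oxide synthase genes, 2 were called higher, as under quantile normalization, Nos2 and Nox4, the latter by 0.94 (SE 0.24, limma adjusted p = 0.0108). Nox4 was not called without Quchi 2 (0.0515), and with normexp background correction its difference turned to -0.086.

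Few markers of vessels were called. Of 14 endothelial markers 2 were called higher, Aplnr, the apelin receptor, at 0.71 (SE 0.21), and Tie1, an endothelial receptor kinase, at 0.55 (SE 0.19), and neither was called without Jiaji 1 or Quchi 1. Aplnr was also not called without Jiaji 3, nor Tie1 without Jiaji 4, Quchi 2 or Quchi 3 or under quantile normalization (adjusted p = 0.111). Neither was called with normexp background correction (0.0703 and 0.108), and quantile normalization called 1 marker higher. Apln, the ligand of Aplnr, went the other way, at -0.50 (SE 0.17), and was not called under quantile normalization (adjusted p = 0.0525) or without Jiaji 1, Jiaji 2, Jiaji 3, Quchi 1, Quchi 2 or Quchi 4. Of 22 angiogenic factors and receptors, 3 were called higher and 2 lower, quantile normalization called 2 and 0, and without Quchi 1 the counts were 1 and 0. Hgf, hepatocyte growth factor, was 0.78 higher (SE 0.23), and with normexp background correction its difference turned to -0.13, while without Jiaji 1, Quchi 2 or Quchi 4 it was not called (0.0543 to 0.0901). Dll4, a Notch ligand of vessel tips, was called at -0.51 and lost that call under quantile normalization (adjusted p = 0.0801) and in all but Jiaji 3 and Quchi 4 of the 8 arrays left out in turn. It was not called with normexp background correction (0.0781), and its other probe differed by 0.35. Vegfb lay at 2.34, -6.51, 2.50 and 1.85 in Jiaji and at 3.36, 3.65, 2.40 and 3.42 in Quchi, with Jiaji 2 far below the rest, and its difference of -3.16 did not pass (SE 1.57, limma adjusted p = 0.154).

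Fibroblast and matrix genes had a median of -0.41 over 16 genes, which became -0.20 under quantile normalization. Of these 0 were called higher and 2 lower by limma, and 1 and 1 under quantile normalization, against 2 higher and 5 lower at an unadjusted p under 0.05. Fn1, fibronectin, differed by -0.81 (SE 0.29), its other probe by 0.08, and Loxl1, which cross-links elastin, by -0.67 (SE 0.24). The call of Fn1 ended under quantile normalization (adjusted p = 0.102), that of Loxl1 did not (adjusted p = 0.00978). Fn1 kept its call only without Jiaji 2 or Quchi 4, and Loxl1 only without Jiaji 4, among the 8 arrays left out in turn. Of 19 TGF beta family and remodelling genes, 2 were called lower, Ccn2, connective tissue growth factor, at -0.99 (SE 0.34), and Inhba, an activin subunit, at -0.52 (SE 0.17). Neither was called without Jiaji 1, Jiaji 2, Jiaji 4, Quchi 1 or Quchi 2, nor Inhba without Quchi 3. Quantile normalization also called 2 lower, but only 1 of them, Inhba, was the same gene, and Ccn2 was not called there (adjusted p = 0.108). Col3a1 did not pass, at -0.38 (SE 0.20).

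Of 21 metalloprotease, Timp and plasminogen genes, 2 were called higher and 2 lower, and quantile normalization called 2 and 1. Adamts9, a proteoglycan-cleaving protease, lay at -0.28, 0.08, 0.03 and 1.20 in Jiaji and at 1.66, 1.63, 1.28 and 1.18 in Quchi. Jiaji 4 alone reached the Quchi range, and the difference was -1.18 (SE 0.23, limma adjusted p = 0.00234). Adamts4, a related protease, lay between -4.24 and -3.60 in Jiaji and between -5.40 and -5.08 in Quchi, 1.25 higher (SE 0.20, limma adjusted p = 0.000613). With normexp background correction its difference was 0.32 and not called (adjusted p = 0.0515). Plg, plasminogen, lay at 0.81, 0.72, 0.86 and 0.97 in Jiaji and at 0.11, -0.12, -0.48 and 0.20 in Quchi, 0.91 higher (SE 0.14, limma adjusted p = 0.000532). Thbd, thrombomodulin, was called at -0.62, a call that ended under quantile normalization (adjusted p = 0.0923) and without Jiaji 1, Jiaji 2, Quchi 1, Quchi 2 or Quchi 4. Of 13 smooth muscle and pericyte markers, 1 was called, Lmod1, a leiomodin of smooth muscle, at -1.03 (SE 0.20, limma adjusted p = 0.00242), and at -0.66 with normexp background correction. Quantile normalization also called 1 lower.

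Of 17 heat shock proteins and chaperones, 4 (23.5%) were called lower and 0 higher by limma, with 6 lower and 0 higher at an unadjusted p under 0.05, and quantile normalization called 2 lower and 0 higher. The list held 13 genes among the brightest 3222, where 25.6% were called lower. Hsf1, the master regulator of the heat shock response, lay between 0.43 and 0.70 in Jiaji and between 0.86 and 1.01 in Quchi, a small difference of -0.35 without overlap (SE 0.09, limma adjusted p = 0.0128). Hspa1l, a constitutive HSP70, was at -0.50 (SE 0.16), not called without Jiaji 2, Jiaji 3, Jiaji 4, Quchi 1 or Quchi 2 (0.058 to 0.138). The mitochondrial chaperones Hspd1 and Hspe1 were at -0.54 (SE 0.15) and -0.51 (SE 0.18), and neither was called under quantile normalization or without Jiaji 1 or Quchi 2, nor Hspe1 without Jiaji 3, Jiaji 4 or Quchi 1. Of 19 endoplasmic reticulum stress genes, 1 was called, beside 2 under quantile normalization: Chac1, a glutathione-degrading target of the stress factor ATF4, 0.55 higher (SE 0.13, limma adjusted p = 0.00594). Of 20 autophagy and mitophagy genes, 2 were called higher, beside 3 under quantile normalization, among them the lysosome membrane gene Lamp2 at 0.51 (SE 0.12).

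The called receptors of nerve growth signals were lower in Jiaji. Ntrk2, the receptor of brain-derived neurotrophic factor, lay at -0.07, -0.27, -0.04 and 0.06 in Jiaji and at 0.47, 1.14, 0.93 and 1.36 in Quchi. Both sets of arrays were apart, and the difference was -1.06 (SE 0.20, limma adjusted p = 0.00242). IRI lay at 1.08 ± 0.14 (SD, n = 4), next to Quchi, and Jiaji differed from it by -1.17 (SE 0.20, limma adjusted p = 0.000667) while Quchi differed by -0.11 (SE 0.20, limma adjusted p = 0.821). Ntrk3, the receptor of neurotrophin 3, was at -0.64 (SE 0.18), not called without Jiaji 1 or Quchi 2 (0.07 to 0.0799). Pomc, the precursor of beta endorphin, lay between -1.66 and -1.31 in Jiaji and between -1.16 and -0.53 in Quchi, a difference of -0.62 (SE 0.13, limma adjusted p = 0.00321). Oprd1, the delta opioid receptor, was called at 0.46 and lost that call under quantile normalization (adjusted p = 0.0783) and without Jiaji 3, Jiaji 4, Quchi 1 or Quchi 3. These 4 were the called genes among 19 adenosine, ATP, opioid and neurotrophin genes tested, and quantile normalization called 5 lower and 0 higher.

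Nerve and Schwann cell markers went both ways, with 3 of 13 called higher and 2 lower, and 2 and 2 under quantile normalization. Beside Th and Slc6a2, Nefm, a neurofilament of axons, was 0.86 higher (SE 0.24), but the call ended under quantile normalization (adjusted p = 0.08) and without Jiaji 1 or Quchi 1, and with normexp background correction the difference turned to -0.084. Prph, a filament of peripheral neurons, was at -0.72 (SE 0.21), not called without Jiaji 4, Quchi 1 or Quchi 2 (0.0661 to 0.0796). Their mean level per array was -2.27 to -1.78 in Jiaji and -2.33 to -1.86 in Quchi, so the list as a whole overlapped. Whether the number of nerve fibres in the samples had a part in the Th and Slc6a2 differences was not tested.

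Called haemoglobin transcripts, which mark red cells in the sample, were lower in Jiaji. Of 12 red cell and platelet markers, 5 (41.7%) were called lower and 0 higher by limma, beside 10.6% and 10.5% of all genes. The list held 5 genes among the brightest 3222, where 25.6% were called lower. None of the other markers passed an unadjusted p under 0.05, and quantile normalization called 1 lower. The mean level of the 12 markers per array was 0.19 to 1.39 in Jiaji and 0.86 to 1.40 in Quchi, and its part in other differences was not tested. Hbe2, an epsilon globin, lay at 4.65, 3.67, 3.06 and 4.52 in Jiaji and at 5.14, 5.32, 4.54 and 4.80 in Quchi. Jiaji 1 alone lay inside the Quchi range, and the difference was -0.98 (SE 0.24, limma adjusted p = 0.0091). The other called globins, Hbb-bs, Hbb-b1, Hba-a1 and Hbb, differed by -1.10, -0.85, -0.65 and -0.61, and all 4 calls ended under quantile normalization and without Jiaji 3 or Quchi 2, those of Hbb-bs and Hba-a1 also without Quchi 1 or Quchi 4. The call of Hbb-bs ended without Jiaji 1 and that of Hba-a1 without Jiaji 2 as well. Near-identical globin genes can share probes, so the members are not independent. Slc4a1, a red cell membrane gene, did not pass, at -0.61 (SE 0.38). For each of the 5 globins the lowest arrays were Jiaji 2 and Jiaji 3, the Jiaji females.

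Immune cell markers gave few calls. Of 15 lymphocyte markers 13 had a difference above 0, with a median of 0.62, and 1 was called, as under quantile normalization. This was Cd8b, a chain of the cytotoxic T cell co-receptor, at -1.65, -1.35, -1.39 and -1.19 in Jiaji and at -2.81, -2.52, -2.35 and -2.01 in Quchi, a difference of 1.03 (SE 0.17, limma adjusted p = 0.00114). Its partner chain Cd8a did not pass, at 1.09 (SE 0.53), with Quchi 3 inside the Jiaji range, and neither did Gzmb, a cytotoxic granule protease, at 0.92 (SE 0.74). Of 16 monocyte and macrophage markers, 1 was called higher and 1 lower, and quantile normalization called 0 and 1. Csf1r, the receptor of Csf1, differed by 0.31 (SE 0.10), and that call ended under quantile normalization (adjusted p = 0.0772) and without Jiaji 1, Jiaji 3, Quchi 1, Quchi 2 or Quchi 3 (0.051 to 0.15) or with normexp background correction (0.0635). Against the shared IRI arrays Csf1r was called in both groups, at 0.99 in Jiaji (SE 0.10, limma adjusted p = 2.56e-06) and 0.68 in Quchi (SE 0.10, limma adjusted p = 0.000711). Both groups were scanned on later days than IRI, and the part of scan day was not tested. Cx3cr1, a receptor of resident macrophages and patrolling monocytes, lay between 0.10 and 0.86 in Jiaji and at 2.62, 2.38, 0.80 and 0.91 in Quchi, with the Quchi males high, and its difference of -1.14 was not called without Jiaji 1, Jiaji 2, Jiaji 4, Quchi 1 or Quchi 2 (0.0508 to 0.112).

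No gene was called by limma among 12 neutrophil, 11 mast cell and 5 mesothelial markers. At an unadjusted p under 0.05, 1 neutrophil marker was higher and 2 lower, 1 mast cell marker was higher and 3 lower, and 1 mesothelial marker was lower, and quantile normalization called 2, 2 and 1 lower. The neutrophil granule genes Camp and Lcn2 did not pass, at -1.04 (SE 0.40, limma adjusted p = 0.0706) and -0.86 (SE 0.34, limma adjusted p = 0.0729), and were called under quantile normalization, at -1.30 and -1.11. Of 8 adipocyte markers, 3 (37.5%) were called higher and 1 (12.5%) lower, beside 10.5% and 10.6% of all genes. Quantile normalization called 2 and 1. Lep, leptin, and Ucp1, the heat-producing protein of brown fat, were faint and differed by 1.24 (SE 0.38) and 0.92 (SE 0.26), Fabp4, a fatty acid carrier, by 0.51 (SE 0.18), and Cfd, adipsin, by -0.90 (SE 0.29). The call of Ucp1 ended without Jiaji 1 and under quantile normalization (adjusted p = 0.0737), and its difference turned to -0.093 with normexp background correction. The call of Lep ended with normexp background correction (a difference of 0.023) and without Jiaji 1, Jiaji 2, Jiaji 4 or Quchi 1, that of Cfd without Jiaji 1, Jiaji 2, Jiaji 4, Quchi 2 or Quchi 3, and that of Fabp4 in all but Jiaji 1 and Quchi 4 of the 8 arrays left out in turn. The mean level of the adipocyte markers per array ran from -2.43 to -2.03 in Jiaji and from -3.14 to -2.36 in Quchi, and their part in other differences was not tested.

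**Figure D4:**
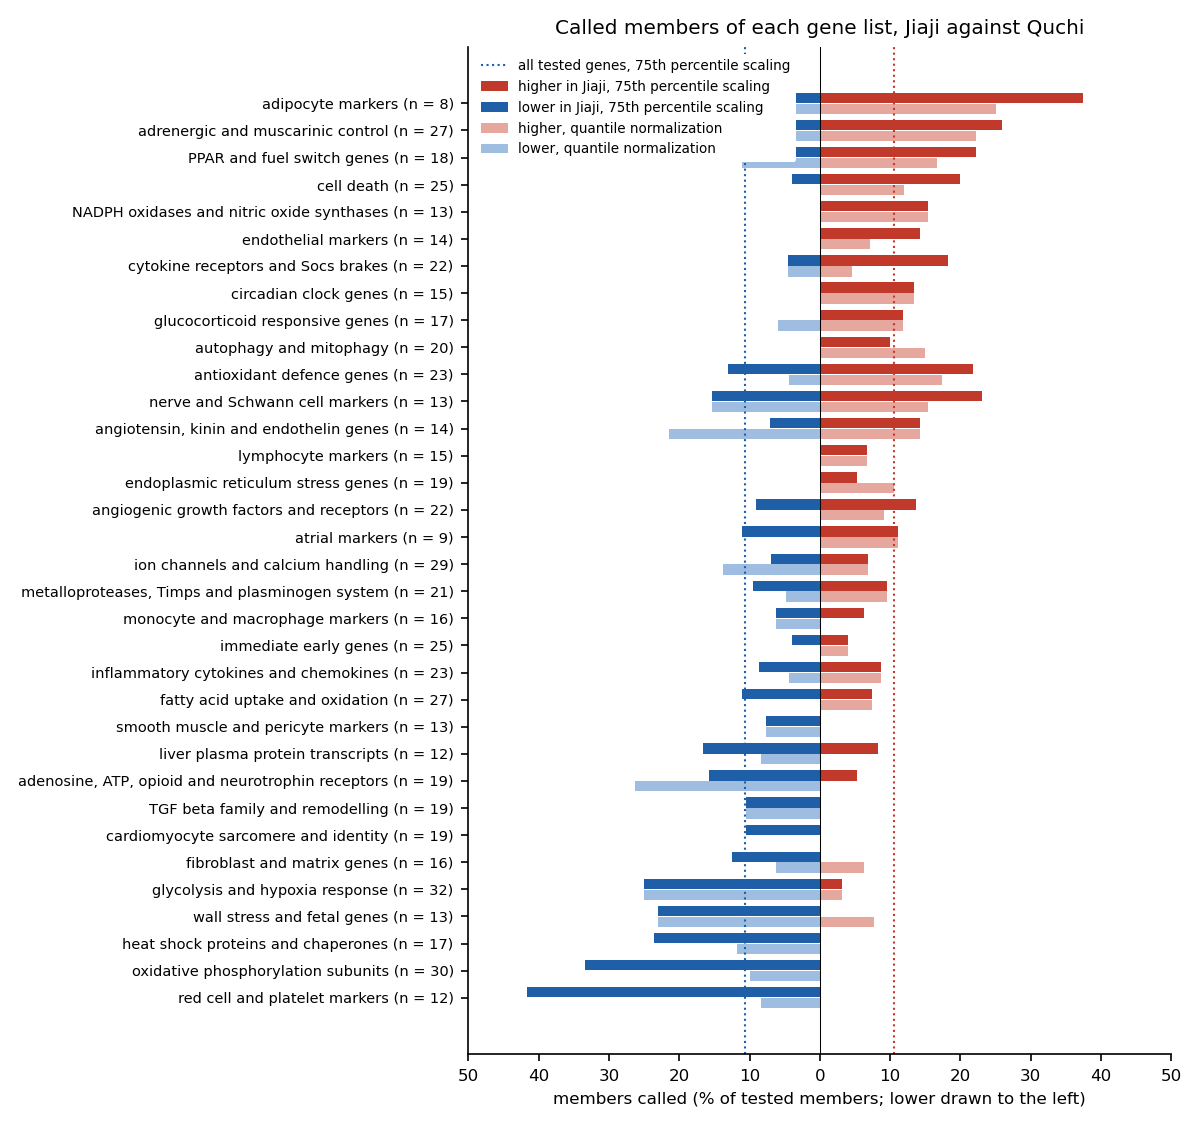
Share of tested members of each gene list called between Jiaji and Quchi (horizontal axis, percent; higher in Jiaji in red to the right, lower in blue to the left), for the lists with at least 1 call under 75th percentile scaling. Dark bars are 75th percentile scaling, pale bars are quantile normalization, and dotted lines mark the 10.5% and 10.6% of all tested genes called in each direction. Glycolysis has 8 lower calls in both scalings, while oxidative phosphorylation goes from 10 to 3.

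The largest differences were ranked among called genes well above background on all 8 arrays whose groups did not overlap, a rule that leaves out Clic6 and Alb. After Tbx3 came Uts2, the vessel-constricting peptide urotensin, which lay at 2.05, 1.65, 2.70 and 2.95 in Jiaji and at -0.66, -1.09, 0.16 and 0.94 in Quchi. The groups did not overlap, and the difference was 2.50 (SE 0.45, limma adjusted p = 0.00156). Quchi was called against IRI, at -1.75 (SE 0.45, limma adjusted p = 0.0335), and Jiaji was not, at 0.75 (SE 0.45, limma adjusted p = 0.338). Cirbp, a cold-induced RNA-binding protein, lay at -0.97, -1.27, -1.02 and -0.97 in Jiaji and at -2.85, -2.88, -2.42 and -2.55 in Quchi. Each group was tight, the difference was 1.62 (SE 0.27, limma adjusted p = 0.00109), and against IRI Quchi differed by -1.34 (SE 0.27, limma adjusted p = 0.00855) and Jiaji by 0.27 (SE 0.27, limma adjusted p = 0.605). Acnat2, an acyl transferase, was 1.96 higher (SE 0.23, limma adjusted p = 3.97e-05), with Jiaji between -3.38 and -2.80 and Quchi between -5.39 and -4.46, and 0.80 higher with normexp background correction.

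By the same rule the rest of the 12 largest higher genes, beside Il33 and Bid, were Chpf2 at 1.81, Fam186b at 1.77, Sncaip at 1.77, the odorant receptor gene Or51a39 at 1.75, the DNA polymerase gene Polm at 1.64 and the potassium channel subunit gene Kcns2 at 1.64. Sncaip and Or51a39 differed by 1.1 and 0.65 with normexp background correction. Polm was not called without Jiaji 3, Jiaji 4 or Quchi 2 (limma adjusted p = 0.0501 to 0.0615). Of the lower genes, Slc3a1, a subunit of a cystine transporter, lay at 2.24, 1.94, 1.22 and 1.24 in Jiaji and at 4.55, 4.48, 3.17 and 2.57 in Quchi. The groups did not overlap, and the difference was -2.03 (SE 0.44, limma adjusted p = 0.00452). Il13ra2, the decoy receptor of interleukin 13, lay at -4.94, -5.10, -4.85 and -5.19 in Jiaji and at -2.99, -2.69, -3.20 and -3.54 in Quchi, at -1.91 (SE 0.31, limma adjusted p = 0.000692), and at -1.16 with normexp background correction.

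Several of the lowest genes are known for other tissues and were faint here. Kcnj1, the potassium channel of the kidney tubule, lay at -5.32, -5.09, -4.98 and -5.00 in Jiaji and at -3.22, -2.75, -3.13 and -3.76 in Quchi, a difference of -1.88 (SE 0.39). Smcp, a sperm mitochondrial protein, lay at -4.70, -4.95, -4.80 and -4.84 in Jiaji and at -2.85, -2.54, -3.00 and -3.44 in Quchi, a difference of -1.86 (SE 0.38). Cartpt, a brain and gut peptide, was at -1.64 (SE 0.31), and the odorant receptor genes Or1e27b and Or8b59 were at -1.84 (SE 0.39) and -1.57 (SE 0.34). In each of these 5 genes the 4 Quchi arrays lay above the 4 Jiaji arrays. High values were not confined to Quchi. Replicate 2 of IRI lay above all 4 Quchi arrays in each of the 5, at -2.65 for Kcnj1 and -2.43 for Smcp. The other IRI arrays lay below all Quchi arrays, and replicate 4 of Yanglingquan lay inside the Quchi range. With normexp background correction the differences of these 5 and of Rad54b were smaller, from -1.17 for Smcp to -0.88 for Rad54b, and all were called. Rad54b at -1.59, Dlk1 at -1.57 and Kcng3 at -1.56 completed the set with C6, a complement component at -1.68 (SE 0.43), and Scn3b at -1.53 (SE 0.40), the last not called without Quchi 1 or Quchi 2 (0.0553 to 0.0573). Odorant, pheromone and taste receptor genes as a whole held 150 called genes of 547 tested, or 27.4% beside 21.0% of all genes, of which 138 were higher and 12 lower in Jiaji. Of these genes 507 were in the fainter 2 of the 4 signal classes. Quantile normalization called 82 higher and 22 lower, normexp background correction 51 and 29, and 58 and 7 were called when Quchi 1 was left out.

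**Figure D5:**
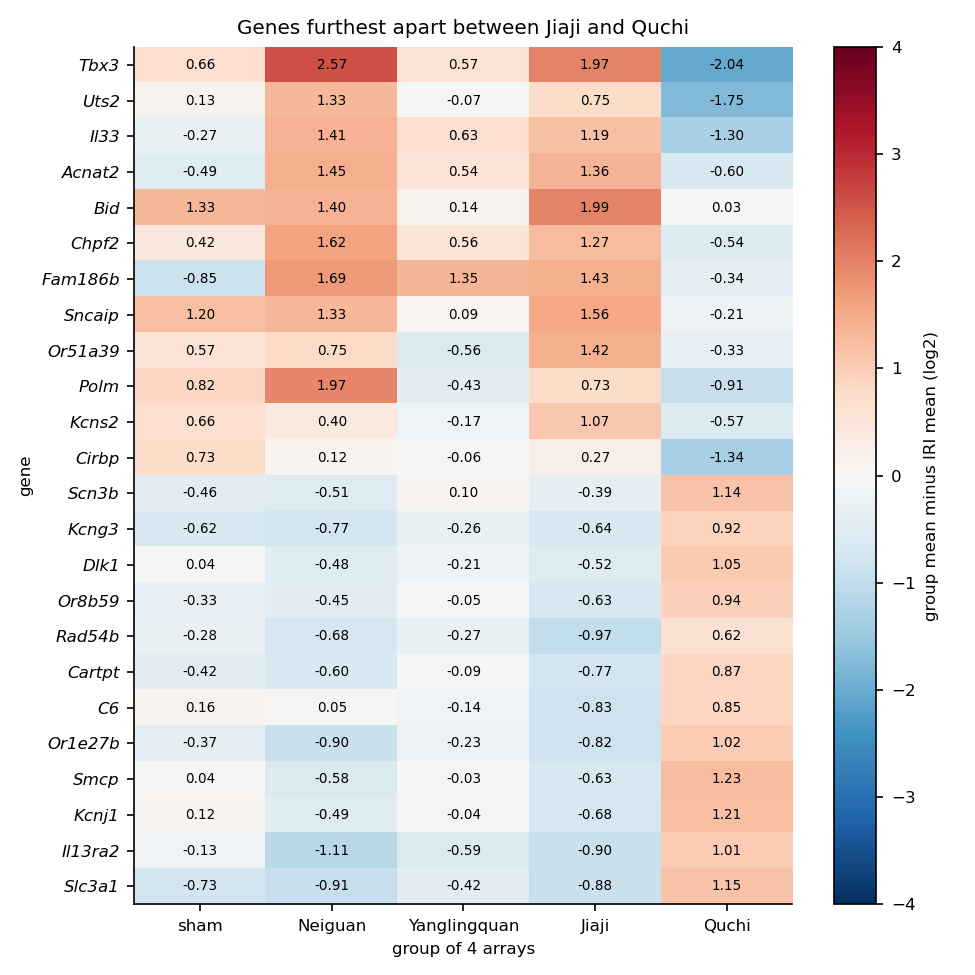
Mean level of each group minus the IRI mean (log2; color scale from -4 to 4, with the value printed in each cell) for the 12 genes furthest above and the 12 furthest below in Jiaji against Quchi, in columns for the groups of 4 arrays. Tbx3 is at 1.97 in Jiaji and -2.04 in Quchi. The lower set is above the IRI mean in Quchi and below it in Jiaji, and all columns share the 4 IRI arrays. The IRI and sham arrays were scanned on an earlier day than those of the other groups. For every gene of the lower set but C6, replicate 2 was the highest IRI array and raised the IRI mean. Kcnj1 lay at -2.65 on that array and at -5.19 to -4.83 on the other IRI arrays, beside -5.32 to -4.98 in Jiaji.

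A gene that no array of one group held well above background has only a bound there. The bound sets the brighter group's mean against the detection limit or, if higher, the signal of the dim probe. A bound above 0 (log2) was found for 36 called genes. Over all 12886 tested genes, 64 were well above background on 0 Jiaji arrays and 50 on 0 Quchi arrays. Alb, albumin, which the liver makes, was well above background on 3 Quchi arrays and 0 Jiaji arrays and was at least 5.93-fold higher in Quchi. It lay at -0.86, -1.85, -3.66 and -7.98 in Quchi, and it was not called without Jiaji 1, Jiaji 4, Quchi 1, Quchi 2 or Quchi 3 (limma adjusted p = 0.0889 to 0.162). Among 12 liver plasma protein transcripts, 1 was called higher and 2 lower, and 0 and 1 under quantile normalization, with Tf, transferrin, at -0.71 and Hpx, hemopexin, at 0.65, and neither of these calls was kept under quantile normalization. Tf was also not called without Jiaji 1, Jiaji 2, Quchi 1 or Quchi 2, and Hpx was not called with normexp background correction (0.0783) and was called only without Quchi 1 or Quchi 4 among the 8 arrays left out in turn. Svs6, a seminal vesicle protein, and Ccdc166 were at least 3.21-fold and 2.36-fold higher in Quchi, where all 4 arrays were above background. Krt15, an epithelial keratin, was at least 2.78-fold higher in Jiaji, again with 4 arrays against 0. With normexp background correction Krt15 differed by 0.20 and Alb by -1.69, and neither was called, and Svs6 and Ccdc166 differed by -0.87 and -0.70.

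The difference between Jiaji and Quchi was also compared between females and males, with 2 arrays per group and sex. Limma called 5 of 12886 genes (0.0388%) for this interaction, 3 (0.0233%) with a higher difference in females and 2 (0.0155%) with a lower one. Tnnt1, the slow skeletal troponin T, lay at 1.02 and 1.22 in the Quchi males and at -1.0 and -1.09 in the Quchi females, against -1.76 to -0.79 in Jiaji. The Jiaji minus Quchi difference was -0.05 in females and -2.86 in males (difference of differences 2.81, SE 0.41, limma adjusted p = 0.0217). Tceal7 and Scn3b, a sodium channel subunit, showed the same form, at -0.25 and -0.27 in females and -3.71 and -2.78 in males. The odorant receptor genes Or11g26b and Or52b1 were at -1.13 and -0.81 in females and 3.41 and 2.85 in males, and both were well above background on 3 Jiaji and 2 Quchi arrays. The Quchi males are arrays 1 and 2, so in Quchi the males include the array of the later scan. Arrays 1 and 2 of Quchi were also the dimmest Jiaji or Quchi arrays before scaling, and the part of array signal was not tested. Without Quchi 1 no gene was called for the interaction, without Quchi 2 the count was 298, and under quantile normalization it was 0, against 1755 genes at an unadjusted p under 0.05.

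A panel of 50 injury, stress, metabolic, clock and blood genes was read as a whole. Of its 49 genes with a tested probe, 16 were called between Jiaji and Quchi and 33 were not, where 21.0% of all tested genes were called. The 33 had differences from -1.48 for Nppa to 0.81 for Angptl4, a PPAR target. Among those not called were Myh7, the slow myosin of heart muscle, at -0.15 (SE 0.14), the calprotectin genes S100a8 and S100a9 at -0.39 (SE 0.57) and -0.50 (SE 0.52), and Cpt1b, the gate of mitochondrial fatty acid import, at -0.02 (SE 0.14). A difference that did not pass is not shown to be absent at 4 arrays per group.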

How the data were processed

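Myocardial RNA of 24 rat samples was hybridised to Agilent arrays, 1 colour each. The deposited scanner files hold spot intensity values, background-subtracted within each array by Agilent Feature Extraction 11.0.1.1 per the file headers (10.7.3.1 per the submitters' processing notes). The deposited flags are other values, 0 or 1, written by the same program. The authors' deposited log2 table of these arrays was tried as an alternative. Its columns look quantile normalized, which no label states.

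Control spots (1377) and outlier spots (8733 over all arrays) were left out, 0 spots were saturated, and spots of a probe were averaged. Of 30367 probes, 17997 (59.3%) were named for 15162 genes through RefSeq accessions (GRCr8). A probe was kept if every array of some group held it well above background, and the brightest stood for its gene. Levels are log2 processed signal minus the 75th percentile. The comparison used limma 3.58.1 in R 4.3.3 over all 24 arrays, with group and sex as terms, 17 residual degrees of freedom and two-sided tests; interactions came from 12 group-by-sex means. The method was checked on simulated data. The number of arrays limits precision, and 231 genes lack a value on some array.

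The comparison, gene lists (41, with 704 of 784 genes tested) and panel were chosen with earlier results of these data known. Named genes were the 12 largest higher and lower called genes with all 8 arrays above background and no overlap, up to 3 called members per list by p with up to 2 others, the panel, 4 bounds and 3 interactions; further called list members, Tceal7, Scn3b as an interaction and genes given as not passing were chosen after their values were seen. Alternatives changed scaling, background correction (normexp on the median signal in place of the planned mean, offset 50), filter, probe rule, terms, blocks and arrays. Hspa1a had no named probe. Results for some genes are not reported here.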

Additional observations from a re-analysis of the deposited data

Results flagged for a closer look

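Within groups of 4 arrays, the highest or lowest array stood far from the other 3 in 18 of 412 gene-by-group checks, with a gap to the nearest array above Dixon's critical value. Chance flags about 1 in 20 groups, and 18 of 412 is no more than that. In Jiaji, replicate 1 stood apart for Hgf at -5.37 (others -5.83 to -5.79), Osmr at -1.67 (others -2.31 to -2.26), Per3 at 0.80 (others 0.29 to 0.35) and Sod1 at 5.24 (others 5.65 to 5.73). Replicate 2 stood apart for Cxcl1 at 1.72 (others 2.98 to 3.11), Lmod1 at -5.71 (others -5.28 to -5.21), Loxl1 at -3.20 (others -2.34 to -2.23) and Vegfb at -6.51 (others 1.85 to 2.50). Replicate 3 did so for Myl7, an atrial myosin light chain, at -1.59 (others -0.48 to -0.40), and replicate 4 for Acot1 at -1.28 (others -0.76 to -0.67).

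In Quchi, replicate 1 stood apart for Il10 at -3.59 (others -3.18 to -3.14). Replicate 2 did so for Sod1 at 6.14 (others 5.93 to 5.95) and Tf at 2.97 (others 2.82 to 2.84). Replicate 3 did so for Cox5a at 5.67 (others 5.94 to 5.98), Hk1 at 4.92 (others 5.40 to 5.47) and Socs1 at -4.10 (others -3.83 to -3.79). Replicate 4 did so for Angptl4 at 2.77 (others 1.88 to 1.98) and Cpt1b at 6.03 (others 5.68 to 5.70).

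The Jiaji minus Quchi difference differed between females and males for 5 genes by limma's interaction test. The females minus males values were 2.81 for Tnnt1 (-0.05 in females, -2.86 in males), 3.47 for Tceal7 (-0.25 and -3.71), 2.51 for Scn3b (-0.27 and -2.78), -3.66 for Or52b1 (-0.81 and 2.85) and -4.54 for Or11g26b (-1.13 and 3.41), with limma adjusted p between 0.0217 and 0.033. In the first 3 the Quchi males, which are arrays 1 and 2 and the dimmest before scaling, were the high pair.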

How the results depend on the processing

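Median scaling called 757 higher and 2992 lower. Normexp background correction called 693 higher, with 3 interactions, and turned Hgf to -0.13, Nefm to -0.084, Nox4 to -0.086, Pmaip1 to -0.067 and Ucp1 to -0.093. Quantile normalization and the authors' deposited values called 0 interactions each. With all probes, named or not, 5462 probes were called, 3177 higher and 2285 lower, and the 8 arrays alone gave 580, 342 higher and 238 lower, with 0 interactions. The slide scan as a random block gave 4065 calls, 1983 higher and 2082 lower, with a block correlation of -0.0996. Each scan held arrays of a single group, so this block cannot separate scan from group. Quantile normalization without Quchi 1, an alternative chosen after seeing the data, gave 1180 calls, 522 higher and 658 lower, with 0 interactions. Leaving out 1 array at a time gave 1311 to 3169 calls, 645 to 1683 higher and 613 to 1486 lower, and 0 to 298 interactions. Causes were not tested beyond the fewer arrays or added probes of the settings named so. With the replicate number as a block, 2661 genes were called, and 10 of the 206 named genes lost their call. Same-numbered arrays deviated together at r = -0.13 to 0.16. These few values cannot show whether the numbers pair samples, and the labels do not say. Of these 206 genes, 5 changed direction under normexp and 0 under the other settings, 47 lost their call under quantile normalization and 88 with the 8 arrays alone. Faint signals limit what can be said: 377 genes passed the filter only through other groups.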
